A study of Arabidopsis thaliana with 7 samples.

Results

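Translational efficiency was taken as the ratio of ribosome footprints to poly(A) RNA of a gene, and its change was followed when Arabidopsis thaliana roots were starved of phosphate. The comparison used 4 of the 7 samples listed for the series, holding 8 libraries, with 2 libraries for each assay in each of 2 conditions. It is the difference between the footprint change and the poly(A) RNA change, on the log2 scale of depth-normalised counts (CPM). Of 27416 nuclear and organellar coding genes in the count table, 19866 passed the filter on low counts and were tested. All libraries came from roots of seedlings harvested at 14 days that carried His6FLAG-tagged RPL18B under the constitutive 35S promoter in Columbia-0 (line 12-2-4), although another label field of the same samples names the tagged protein RPL8. Control seedlings spent the last 7 days on medium with 500 µM NaH2PO4, and low-phosphate seedlings spent them on medium with 0 µM, in which NaCl supplied the sodium. For the low-phosphate poly(A) sample the condition was read from its title, because its growth text repeats the control text. Footprints were fragments of 26 to 32 nt protected by ribosomes that had been pulled down through the tag. The poly(A) RNA came from the same kind of cleared extract. A single transgenic line was used, and the tag marks cytosolic ribosomes of the cells in which the promoter is active.

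The footprint to RNA ratio approximates how many ribosomes each transcript carries. Short open reading frames in the 5′ untranslated region (uORFs) can lower this ratio on the main coding region, and a few of them encode conserved peptides that respond to a metabolite. Plants short of phosphate replace phospholipids by galactolipids and sulfolipids, secrete phosphatases, and raise phosphate transporters. TOR kinase and its substrate S6 kinase link nutrient supply to the translation machinery. Plastid and mitochondrial transcripts mostly lack long poly(A) tails and are read by ribosomes without RPL18, so their ratios do not have the usual meaning.

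The 8 libraries held 7156329 to 12817826 footprint counts and 18262547 to 26746252 poly(A) counts, and 3 counts correspond to 0.112 to 0.419 CPM. All members of the root hair, endodermis, meristem and vascular marker lists had counts, and the low-phosphate label was borne out by SPX3, an inhibitor of the phosphate starvation regulator PHR1. Its poly(A) RNA was 1.39 and 3.54 CPM in control against 69.0 and 69.1 CPM under starvation. Summed over 23 root hair genes, footprints were 1162 and 1254 CPM in control against 2735 and 2431 CPM in low phosphate, while 28 nuclear photosynthesis genes ranged from 898 to 1725 CPM with no separation of the conditions. These are whole roots, so fewer cells of a type and less RNA per cell cannot be told apart.

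The same change was fitted in 2 ways. Without pairing of libraries 0 genes (0%) were called by edgeR's quasi-likelihood test at an adjusted p of 0.05, and 177 genes (0.891%) were higher and 220 (1.11%) lower at an unadjusted p under 0.05, together 2% of those tested. With the footprint and poly(A) libraries of the same number taken as pairs, 3 genes (0.0151%) rose and 5 genes (0.0252%) fell, together 0.0403%. Of these 8 genes, limma voom with pairs called 6, and limma on log2 CPM and DESeq2 with pairs called 0. At an unadjusted p under 0.05 in the edgeR fit with pairs, 649 genes (3.27%) were higher and 910 (4.58%) lower, together 7.85%. The labels do not state that equal numbers mark the same plants. Both low-phosphate ratios lay above both control ratios in 3573 genes, 18% of those tested, and below both in 3868 genes, 19.5%. These shares are the background for the counts of genes above or below control in both pairs in each list. Over the 16773 genes whose average log2 CPM reached 1, the median difference of the log2 ratio was 0.25 between the control pairs, 0.22 between the low-phosphate pairs and 0.19 between the condition means. The last value is a difference of means of 2 pairs, which is smaller than a difference of single pairs even where nothing changes, so the 3 medians are given as a description.

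**Figure D1:**
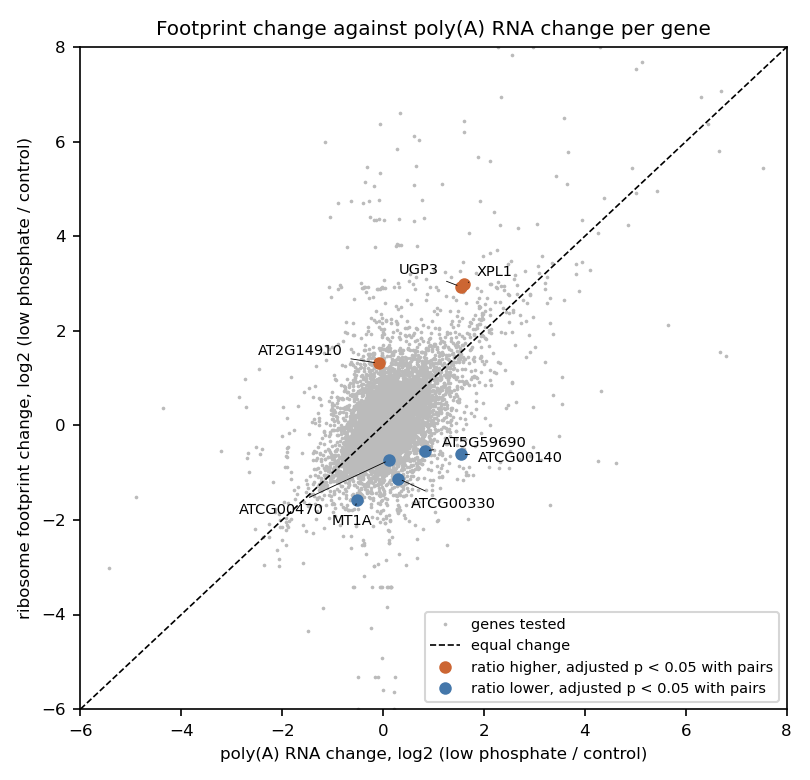
Each grey point is 1 of the 19866 genes tested, with its poly(A) RNA change on the horizontal axis and its footprint change on the vertical axis (both log2, low phosphate over control, edgeR; values beyond the frame are drawn at its edge). The dashed line marks equal change; the 3 genes whose ratio rose with pairs (orange) lie above it and the 5 whose ratio fell (blue) lie below it.

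The gene of phosphocholine synthesis XPL1 (AT3G18000) gained footprints beyond its gain in RNA. XPL1 encodes a phosphoethanolamine N-methyltransferase, the enzyme that makes the phosphocholine head group, and its leader carries a uORF through which phosphocholine is known to lower its translation. Its poly(A) RNA was 21.2 and 22.2 CPM in control and 74.1 and 58.7 CPM in low phosphate. Its footprints were 6.54 and 9.57 CPM in control and 80.9 and 47.0 CPM in low phosphate. Neither assay overlapped between conditions. The log2 ratio was -1.68 and -1.21 in the control pairs and 0.13 and -0.32 in the low-phosphate pairs, so it moved from well below the median of all genes to near it. RNA was 3.06-fold and footprints were 7.95-fold higher, and the ratio rose by 1.35 ± 0.23 (log2, SE; 2.55-fold; edgeR adjusted p = 0.00324 with pairs). Without pairs the change was 1.38 ± 0.39 with an edgeR adjusted p of 1. The call was also lost without control pair 1 (edgeR adjusted p = 0.0912) or without low-phosphate pair 1 (edgeR adjusted p = 0.293).

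The deposited leader values describe where on the XPL1 transcript the footprints lay. The 5′ UTR of AT3G18000.1 is on chromosome 3 of TAIR10, from 6154363 to 6154577 on the plus strand, and is 215 nt long. In this leader, footprints were 14.9 and 10.3 RPKM (reads normalised for length and depth) in control and 31.2 and 50.4 RPKM in low phosphate. The leader's poly(A) values were 18.6 and 11.6 RPKM in control and 33.2 and 57.2 RPKM in low phosphate. Both assays of the leader were higher in low phosphate. The leader ratio, on the log2(RPKM + 0.5) scale, was -0.31 and -0.17 in control and -0.09 and -0.18 in low phosphate, a difference of 0.11, against 1.35 for the coding region on log2 CPM. Leaders in general had lower ratios in low phosphate: over 4866 leaders in 1 exon with RPKM above 0 in all libraries, the median difference was -0.53, being -0.22 for low-phosphate pair 1 and -0.86 for pair 2. The XPL1 leader therefore lay above the median leader, and its value and that of the coding region are on scales with different backgrounds. No test was made on the leader values. The authors' uORF table lists 1 uORF in this leader, 78 nt long from position 72 to 149 of the transcript. Its score, whose derivation the sources used here do not give, was 317 and 388 for control footprints and 670 and 1518 for footprints under starvation, against 600 and 741 for control poly(A) and 2259 and 2895 for low-phosphate poly(A).

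None of the other listed enzymes of phosphocholine and phosphatidylcholine synthesis was called. Of these 8 genes, 2 had both low-phosphate ratios above and 2 had both below the control ratios, against 18% and 19.5% of all genes. The median change was 0.10 against -0.01 over all genes. PMEAMT (AT1G48600), a second N-methyltransferase with a conserved uORF, had log2 ratios of -0.52 and -0.32 in control and 0.03 and -0.19 in low phosphate (change with pairs 0.34 ± 0.16, edgeR adjusted p = 0.6). The third family member, AT1G73600, which is not among the 8, had footprints of 15.5 and 16.1 CPM in control and 4.59 and 2.91 CPM in low phosphate, and its RNA was lower to a like extent (change of ratio -0.19 ± 0.35 with pairs, edgeR adjusted p = 0.937). Its sign turned when single libraries were left out. These 3 genes are similar in sequence, and the sources used here do not give the counting method, so reads could have been split between them. AAPT2, an aminoalcohol phosphotransferase of the last step, had log2 ratios of 0.00 and 0.14 in control and 0.87 and 0.20 in low phosphate, and CCT2, which activates phosphocholine, had 0.94 and 0.68 in control and 0.33 and 0.50 in low phosphate. Neither was called.

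Among the galactolipid and sulfolipid enzymes, UGP3, MGD1, SQD1 and DGD2 had both low-phosphate ratios above both control ratios. UGP3 (AT3G56040) makes the UDP-glucose used for the sulfolipid head group. Its poly(A) RNA was 7.75 and 12.5 CPM in control and 25.9 and 32.7 CPM in low phosphate, and its footprints were 2.38 and 5.80 CPM in control and 24.75 and 38.03 CPM in low phosphate. The log2 ratio went from -1.66 and -1.09 to -0.07 and 0.22, and it rose by 1.41 ± 0.29 (2.66-fold; edgeR adjusted p = 0.0416 with pairs). RNA was 2.91-fold and footprints were 7.61-fold higher. The UGP3 call was lost when control pair 1, low-phosphate pair 1 or low-phosphate pair 2 was left out, with edgeR adjusted p of 0.322, 0.0781 and 0.112.

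MGD1, the main synthase of monogalactosyldiacylglycerol in the inner plastid envelope, had poly(A) RNA of 15.5 and 21.2 CPM in control and 20.8 and 19.3 CPM in low phosphate, with no separation. Its footprints were 3.57 and 7.10 CPM in control and 12.5 and 9.21 CPM in low phosphate, with log2 ratios of -2.08 and -1.56 against -0.73 and -1.06. The change of 0.91 ± 0.31 was not called (edgeR adjusted p = 0.401 with pairs). SQD1, which makes UDP-sulfoquinovose, had log2 ratios of -0.60 and -0.70 in control and 0.03 and -0.56 in low phosphate. SQD2, which transfers the sulfoquinovose, had 0.78 and 0.75 in control and 0.56 and 0.67 in low phosphate, and its change of -0.15 ± 0.35 without pairs turned to 0.21 without footprint control library 2 and to 0.15 without poly(A) control library 1. MGDC (MGD3), a synthase known for phosphate starvation, had RNA higher by 5.44 on the log2 scale and a change of ratio of -0.49 ± 0.46 without pairs, and its control ratios of 1.63 and -0.27 lay far apart. DGD2, which makes digalactosyldiacylglycerol, had a change of 0.28 without pairs. Over the 8 genes the median change was 0.21. In 4 genes both low-phosphate ratios lay above the control ratios, against 18% of all genes, and in 1 both lay below, against 19.5%. UGP3 was the gene of this list that was called.

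**Figure D2:**
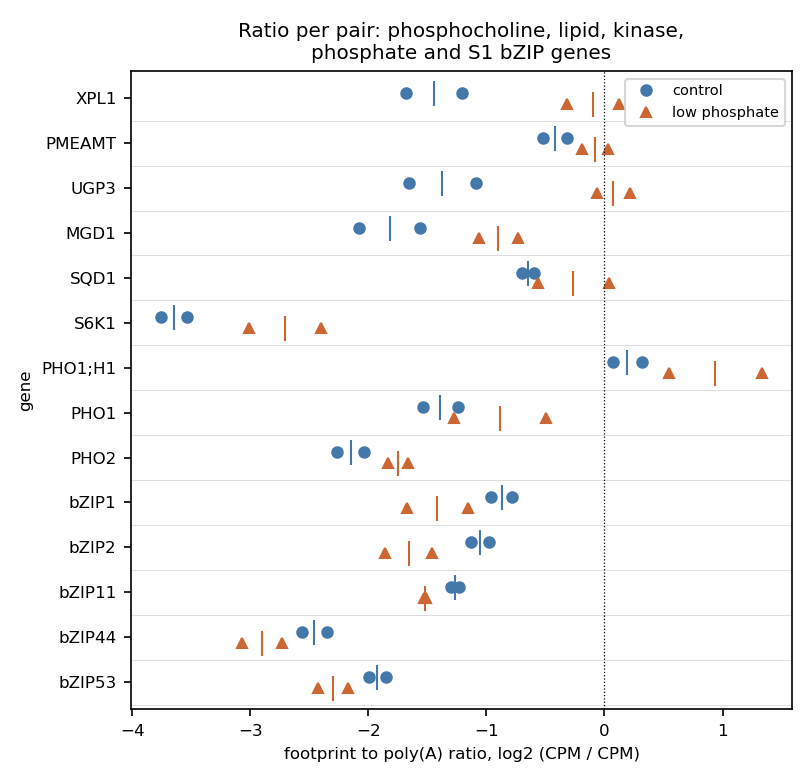
Log2 footprint to poly(A) ratio (horizontal axis) of 14 genes (vertical axis); circles are the 2 control pairs, triangles the 2 low-phosphate pairs and ticks their means. XPL1, UGP3, MGD1 and S6K1 lie to the right in low phosphate and the 5 bZIP genes lie to the left, with no overlap between conditions.

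The other genes with conserved peptide uORFs lay on both sides, and none was called. Of the 18 besides XPL1, 4 (PMEAMT, SAMDC, BUD2 and CIPK6) had both low-phosphate ratios above the control ratios and 9 had both below, against 18% and 19.5% of all genes. SAMDC, BUD2 and CIPK6 are named to complete that count, after their values were seen. With XPL1 the list of 19 had a median change of -0.11. In control roots this list was ribosome-poor, with median log2 ratios of -1.23 and -1.21 against -0.02 and 0.00 over all genes. The median changed sign, to between 0.01 and 0.09, when any 1 of 5 libraries was left out (footprint control 1, footprint low phosphate 2, poly(A) control 2 and both poly(A) low-phosphate libraries). Among the 9 genes with lower ratios were all 5 listed bZIP transcription factors of the S1 group, whose shared uORF is known to reduce translation when sucrose is high. They were singled out after their values were seen.

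bZIP2 (AT2G18160) had the largest change of them. Its poly(A) RNA was 473 and 316 CPM in control and 420 and 368 CPM in low phosphate, with overlap, whereas its footprints were 241 and 144 CPM in control and 116 and 133 CPM in low phosphate. The log2 ratio was -0.98 and -1.13 in control and -1.86 and -1.46 in low phosphate (change with pairs -0.61 ± 0.16, edgeR adjusted p = 0.206). The log2 ratio of bZIP1 was -0.78 and -0.96 in control and -1.68 and -1.16 in low phosphate, and that of bZIP11 was -1.23 and -1.30 in control and -1.51 and -1.53 in low phosphate. For bZIP44 it was -2.35 and -2.56 in control and -2.73 and -3.07 in low phosphate, and for bZIP53 it was -1.85 and -1.99 in control and -2.17 and -2.42 in low phosphate. None of the 5 was called by either fit, and the sign of bZIP1, bZIP11 and bZIP44 turned when some single libraries were left out of the fit without pairs.

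In the leaders of all 5 bZIP genes, which contain the uORF, the ratio was also lower in both low-phosphate pairs than in both control pairs. For bZIP2 the leader ratio was 0.65 and 0.65 in control and -0.00 and -0.07 in low phosphate, a difference of -0.68. The differences for bZIP1, bZIP11, bZIP44 and bZIP53 were -1.01, -0.86, -0.49 and -1.03, on the log2(RPKM + 0.5) scale. Over the 4866 leaders the ratio was lower in both low-phosphate pairs in 35.6% and higher in both in 4.67%, with a median difference of -0.53, so the bZIP leaders had the direction of leaders in general. These values were not tested.

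**Figure D3:**
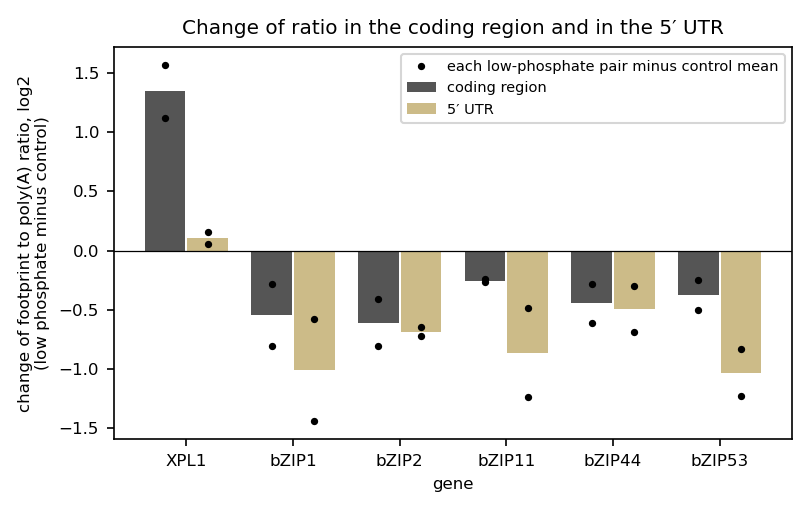
Change of the footprint to poly(A) ratio (vertical axis, log2, low phosphate minus control) for XPL1 and 5 bZIP genes (horizontal axis) in the coding region (dark bars, log2 CPM) and the 5′ UTR (light bars, log2(RPKM + 0.5)). Points are each low-phosphate pair minus the mean of the 2 control pairs; for XPL1 the bars stand at 1.35 and 0.11, and for the bZIP genes all bars are below 0, as was the median of all leaders at -0.53.

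In AT2G14910 and S6K1 footprints differed while RNA overlapped between conditions. AT2G14910, for which the annotation used here gives no name, had poly(A) RNA of 95.0 and 84.8 CPM in control and 94.6 and 74.6 CPM in low phosphate. Its footprints were 12.9 and 15.1 CPM in control and 50.1 and 18.9 CPM in low phosphate, and the log2 ratio was -2.87 and -2.48 in control and -0.92 and -1.97 in low phosphate. It rose by 1.29 ± 0.23 (edgeR adjusted p = 0.00748 with pairs). The call rested on low-phosphate pair 1, without which the change was 0.70 (edgeR adjusted p = 1).

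S6K1 (AT3G08730), the kinase of ribosomal protein S6, had poly(A) RNA of 75.8 and 70.2 CPM in control and 93.2 and 53.7 CPM in low phosphate. Its footprints were 5.50 and 5.94 CPM in control and 17.5 and 6.54 CPM in low phosphate. Its log2 ratio was -3.76 and -3.54 in the control pairs, against -2.40 and -3.02 in the low-phosphate pairs. Among the 27 listed genes of initiation, elongation and TOR signalling, S6K1 had the lowest control ratios. The change of 1.02 ± 0.26 was not called (edgeR adjusted p = 0.16 with pairs), and most of the footprint difference came from low-phosphate library 1. Its close relative S6K2 had log2 ratios of -1.40 and -1.71 in control and -1.49 and -1.20 in low phosphate, which overlap. TOR had higher ratios in both low-phosphate pairs (change with pairs 0.23, edgeR adjusted p = 0.768). EIF4E, the cap-binding factor, had 1.06 and 0.73 in control and 0.44 and 0.57 in low phosphate. Over 27 genes of initiation, elongation and TOR signalling the median change was 0.02, with 3 genes (11.1%) above and 6 (22.2%) below control in both pairs, against 18% and 19.5% of all genes, and none called.

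No phosphate transport or signalling gene was called. Of 29 listed genes 25 were tested, 7 (28%) had both low-phosphate ratios above and 5 (20%) had both below the control ratios, against 18% and 19.5% of all genes. The median change was 0.05 and ran from -0.08 to 0.14 when single libraries were left out. The 7 with higher ratios were PHO1;H1, PHO2, PHT1;2, PHT1;5, PHT1;9, PHF1 and PDR2, of which those after PHO2 are named to complete that count. PHO1;H1, a homologue of the xylem phosphate exporter PHO1, had log2 ratios of 0.07 and 0.31 in control and 1.33 and 0.55 in low phosphate (change with pairs 0.74 ± 0.21, edgeR adjusted p = 0.273). PHO1 had -1.54 and -1.24 in control and -0.50 and -1.27 in low phosphate, which overlap. PHO2, the ubiquitin-conjugating enzyme that removes phosphate transporters, had poly(A) RNA of 544 and 507 CPM in control and 291 and 263 CPM in low phosphate, but footprints of 113 and 124 CPM in control and 92.0 and 73.9 CPM in low phosphate. Its log2 ratio was -2.27 and -2.03 in control and -1.66 and -1.83 in low phosphate.

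PHT1;8, WRKY75 and SPX3 had lower ratios. PHT1;8, a phosphate transporter, had log2 ratios of 0.78 and 1.04 in control and 0.25 and 0.35 in low phosphate. For WRKY75, a transcription factor of the phosphate response, they were 0.83 and 0.71 in control and 0.11 and 0.16 in low phosphate, with RNA of 24.1 and 26.4 CPM in control and 24.6 and 48.9 CPM in low phosphate. SPX3 had control ratios far apart, where its counts were low, and -0.09 in both low-phosphate pairs. SPX1 and the transporter PHT1;1 had changes of ratio of -0.05 ± 1.07 and -0.02 ± 0.23 without pairs, and their signs turned when single libraries were left out.

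Among 20 tested genes of phosphatases and lipid recycling, 7 (35%) had ratios above and 2 (10%) below control in both pairs, against 18% and 19.5% of all genes, and none was called. The 7 include PAP23, whose control ratios were both 0.00, as for a gene with no counts in either assay. The error of its change could not be estimated (SE 923 without pairs). The median change of 0.06 ran from -0.03 to 0.26 when single libraries were left out. PS2, a phosphatase whose RNA was higher by 5.01 on the log2 scale, had log2 ratios of 0.84 and 0.59 in control and 0.63 and 0.63 in low phosphate. RNS1, a ribonuclease that releases phosphate from RNA, had footprints of 0.149 and 0.435 CPM in control, below and at about the level of 3 counts, and 5.33 and 6.06 CPM in low phosphate. Its poly(A) RNA was 0.356 and 0.506 CPM in control and 1.99 and 2.29 CPM in low phosphate (change of ratio 1.98 ± 1.02 with pairs, edgeR adjusted p = 0.652).

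Metallothioneins, the small cysteine-rich metal-binding proteins, had lower ratios in low phosphate. Of the 6 genes, 5 had both low-phosphate ratios below both control ratios, against 19.5% of all genes, and the median change was -0.64. MT1A (AT1G07600) had footprints of 604 and 546 CPM in control and 231 and 155 CPM in low phosphate, and poly(A) RNA of 1091 and 1258 CPM in control and 759 and 882 CPM in low phosphate. Its log2 ratio was -0.85 and -1.20 in control and -1.72 and -2.50 in low phosphate, and it fell by 1.08 ± 0.17 on the log2 scale (0.474-fold; edgeR adjusted p = 0.00279 with pairs). Without low-phosphate pair 2 the change was -0.66 and the call was lost (edgeR adjusted p = 0.0776).

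MT1C, the near neighbour of MT1A, had footprints of 395 and 307 CPM in control and 100.0 and 123 CPM in low phosphate, and log2 ratios of -0.40 and -0.90 in control and -1.39 and -1.25 in low phosphate (edgeR adjusted p = 0.152 with pairs). Both genes are alike in sequence and may share reads. MT2B had log2 ratios of 0.78 and 0.29 in control and -0.42 and 0.20 in low phosphate, and MT2A had 0.85 and 0.30 in control and -0.14 and 0.29 in low phosphate. For MT3 they were 2.06 and 1.90 in control and 0.94 and 1.83 in low phosphate. In these 3 genes the second low-phosphate pair lay close to the control pairs. MT1B overlapped, with 1.53 and 1.90 in control and -0.04 and 1.68 in low phosphate. Leaving out single libraries moved the list's median between -0.94 and -0.45.

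Most histone genes had lower ratios, by less than the metallothioneins. Of 26 genes tested, 20 had both low-phosphate ratios below both control ratios (76.9%, against 19.5% of all genes), and none had both above. With pairs, 15 were lower at an unadjusted p under 0.05, against 4.58% of all genes, and none of these 26 was called. The 20 include HTR11, whose footprint change was 0.00 and whose error could not be estimated. The list was drawn from words in gene names, so histone genes without such words are not in it. Over the 26 genes the median RNA was higher by 0.38 in low phosphate on the log2 scale. The median footprint change was 0.04 and the median change of ratio was -0.40. HTB9, a histone H2B, had poly(A) RNA of 104 and 115 CPM in control and 129 and 145 CPM in low phosphate, with footprints of 87.1 and 72.0 CPM in control and 70.4 and 61.4 CPM in low phosphate. Its log2 ratio was -0.26 and -0.68 in control and -0.88 and -1.24 in low phosphate (change with pairs -0.59 ± 0.18, edgeR adjusted p = 0.318). HTA11, a histone H2A, had log2 ratios of 0.43 and 0.26 in control and -0.12 and -0.23 in low phosphate. HTB11, an H2B gene outside the list, had -0.04 and -0.33 in control and -0.82 and -0.99 in low phosphate. Most plant histone transcripts are made in dividing cells and belong to families of near-identical copies, among which the counting could have split reads. The 19 meristem markers summed to 404 and 427 CPM of footprints in control and 450 and 437 CPM in low phosphate, and to 314 and 349 CPM of poly(A) RNA in control and 382 and 403 CPM in low phosphate. Their median change of ratio was -0.13, with 6 genes (31.6%) below and 1 (5.26%) above in both pairs, against 19.5% and 18% of all genes. Without pairs 14 of the 19 had a negative and 5 a positive change. The mitotic kinases CDKB2;1 and CDKB2;2 had the lowest changes, of -0.52 ± 0.21 and -0.59 ± 0.25. Among the positive ones, CYCA1;1 had 0.45, CYCD3;1 had 0.37 and the kinase CDKB1;1 had 0.07. Whether cell division bears on the histone values was not tested.

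AT5G59690, which the annotation used here does not name and which was not in the histone list, had a called fall with pairs. That list was drawn from words in gene names, so absence from it does not show that a gene is not a histone gene. With MT1A, AT5G59690 was 1 of the 2 nuclear genes called lower. Its footprints were 41.8 and 28.1 CPM in control and 18.4 and 29.9 CPM in low phosphate, which overlap, and its poly(A) RNA was 7.65 and 9.50 CPM in control and 12.1 and 18.3 CPM in low phosphate, which do not. The log2 ratio was 2.43 and 1.55 in control and 0.60 and 0.70 in low phosphate, and it fell by 1.36 ± 0.26 (edgeR adjusted p = 0.0113 with pairs). Without control pair 1 the change was -0.91 (edgeR adjusted p = 0.726), and the call was also lost without low-phosphate pair 1 (edgeR adjusted p = 0.0846).

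**Figure D4:**
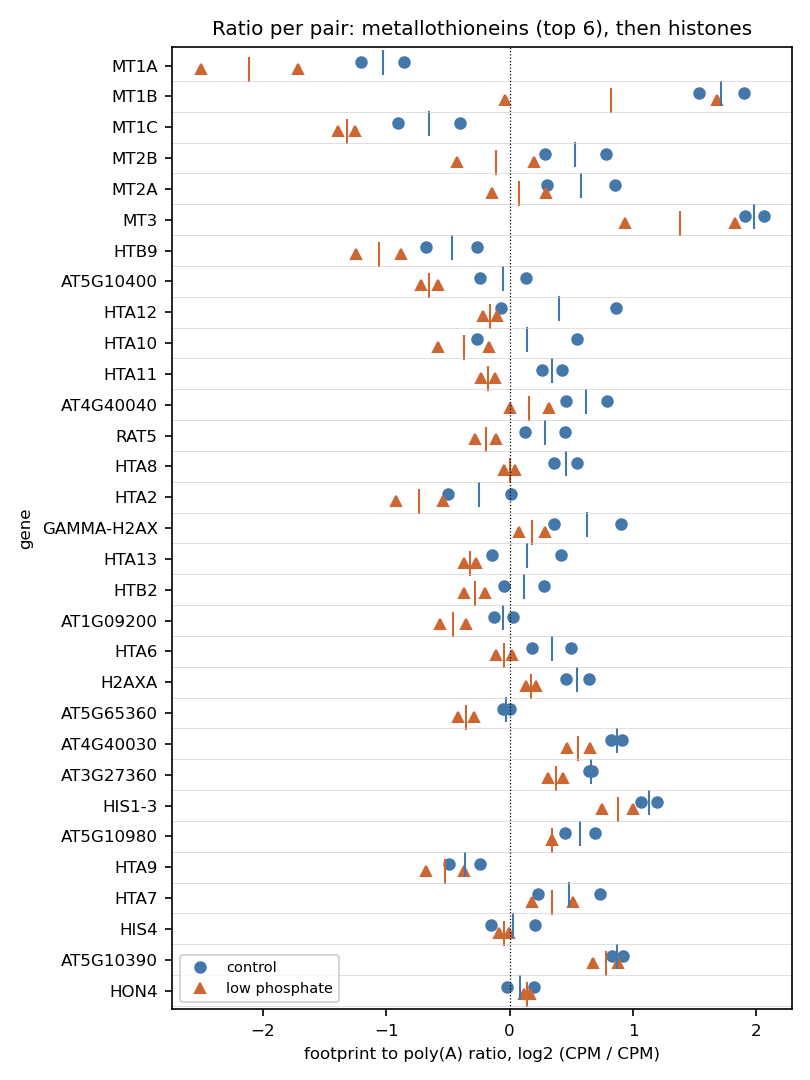
Log2 footprint to poly(A) ratio (horizontal axis) of the 6 metallothioneins and of the histone genes tested, without HTR11, whose error could not be estimated (vertical axis). Circles are the 2 control pairs, triangles the 2 low-phosphate pairs and ticks their means; in 5 metallothioneins and most histones the triangles lie left of the circles.

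Of 37 cytosolic ribosomal protein genes, 33 had a negative and 4 a positive change without pairs. In 19 (51.4%, against 19.5% of all genes) both low-phosphate ratios lay below the control ratios, and in 1 (2.70%, against 18%) both lay above. The median change was -0.21, between quartiles of -0.26 and -0.13. Their median RNA was higher by 0.15 and their median footprints were lower by a log2 change of -0.06. RPS28 had log2 ratios of 0.18 and -0.10 in control and -0.57 and -0.48 in low phosphate (change with pairs -0.56 ± 0.17, edgeR adjusted p = 0.312). RPL18, the gene of the tagged protein, had -0.81 and -0.73 in control and -1.01 and -1.25 in low phosphate, and its counts sum the native gene and the transgene. None was called, and leaving out single libraries moved the list's median between -0.34 and -0.02, the latter without footprint control library 2. The 31 proteasome genes had a median of -0.11, with 12 (38.7%) below and none above control in both pairs, against 19.5% and 18% of all genes.

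Plastid-encoded genes carried 3 of the 5 falls. Of 88 genes 72 were tested, 32 (44.4%, against 19.5% of all genes) had both low-phosphate ratios below and 1 (1.39%, against 18%) had both above the control ratios, and the median change was -0.62. The 32 include ATCG00690, whose poly(A) change was 0.00 and whose error could not be estimated. Without poly(A) low-phosphate library 1 the median was -0.30. Their summed footprints were 8783 and 10680 CPM in control and 6477 and 5989 CPM in low phosphate, while their summed poly(A) RNA was 916 and 658 CPM in control and 736 and 641 CPM in low phosphate. ATCG00470 had footprints of 70.6 and 65.2 CPM in control and 38.6 and 43.0 CPM in low phosphate, and near-equal RNA of 64.3 to 77.1 CPM in all 4 libraries. Its ratio fell by 0.86 ± 0.18 (edgeR adjusted p = 0.0424 with pairs). ATCG00330 had footprints of 70.9 and 54.4 CPM in control and 21.7 and 36.0 CPM in low phosphate with RNA of 5.56 to 7.37 CPM, and its ratio fell by 1.46 ± 0.25 (edgeR adjusted p = 0.00324). For ATCG00140 the poly(A) RNA was only 0.178 and 0.455 CPM in control and 0.737 and 1.00 CPM in low phosphate, so its fall of 2.13 ± 0.44 (edgeR adjusted p = 0.0416) rests on few RNA reads. Each of these calls was lost in some of the fits that left out 1 pair: ATCG00470 without the first pair of either condition, ATCG00330 without low-phosphate pair 1, and ATCG00140 without control pair 1 or low-phosphate pair 2.

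The nuclear genes of the plastid did not give as steady a value. Of 28 photosynthesis genes, 15 (53.6%, against 19.5% of all genes) had ratios below and 1 (3.57%, against 18%) above control in both pairs, with a median change of -0.36. Their summed poly(A) RNA was 777 and 1918 CPM in control and 1678 and 1176 CPM in low phosphate. The list's level differed as much between replicates as between conditions, and its median turned to 0.20 without footprint control library 2 and to 0.09 without poly(A) control library 1. The 23 nuclear genes of plastid ribosomal proteins had a median of -0.27, which turned to 0.02 without footprint control library 2. Of 122 mitochondrial genes 26 were tested, with a median of -0.38 that turned to 0.24 without footprint control library 1. The part of tissue make-up or library composition in these values was not tested.

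Of 23 root hair genes, 10 (43.5%, against 18% of all genes) had both low-phosphate ratios above and 1 (4.35%, against 19.5%) had both below the control ratios, the other 12 overlapped, and none was called. The median change was 0.19, and 0.03 without footprint low-phosphate library 1; 8 genes had a negative change. Their median poly(A) change was 1.06. SHV3, a glycerophosphodiester phosphodiesterase-like protein needed for hair growth, had poly(A) RNA of 154 to 168 CPM in all 4 libraries. Its footprints were 246 and 281 CPM in control and 376 and 348 CPM in low phosphate (change of ratio with pairs 0.51 ± 0.16, edgeR adjusted p = 0.349). MRH2, a kinesin of root hairs, had footprints of 5.35 and 4.78 CPM in control and 15.5 and 14.9 CPM in low phosphate, and log2 ratios of 0.22 and 0.48 against 1.13 and 1.54 (edgeR adjusted p = 0.482).

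In the remaining lists no gene was called, and counts in both pairs are again read against 18% above and 19.5% below over all genes. Of 19 sulfate uptake and assimilation genes, 10 (52.6%) were above and 3 (15.8%) below control in both pairs, with a median of 0.14. The sulfate transporter SULTR1;3 had footprints of 1.04 and 0.580 CPM in control and 12.5 and 19.0 CPM in low phosphate and log2 ratios of -0.41 and 0.05 against 0.62 and 1.06 (edgeR adjusted p = 0.646 with pairs). LSU1 and LSU2, with smaller p than SULTR1;3 in that fit, were lower. LSU1 had log2 ratios of 0.91 and 0.40 in control and -0.65 and 0.05 in low phosphate (edgeR adjusted p = 0.223 with pairs). For LSU2 they were 0.81 and 0.04 in control and -0.33 and -0.08 in low phosphate (edgeR adjusted p = 0.59 with pairs). Of 13 vacuolar ATPase genes, 8 (61.5%) were above and 1 (7.69%) below, with a median of 0.16. Medians were 0.11 for 16 vascular markers, -0.01 for 19 endodermis markers, -0.01 for 20 nitrogen genes, -0.07 for 23 iron genes and -0.13 for 7 flavonoid genes. The 12 low-oxygen genes had a median of -0.27 that turned to 0.09 without footprint control library 1. Of 62 WRKY factors 23 (37.1%) were below and 4 (6.45%) above in both pairs, with a median of -0.19. Of 20 aquaporins 10 (50%) were below and 1 (5%) above, with a median of -0.17. The 40 arabinogalactan protein genes had a median of -0.17, with 7 (17.5%) below and 1 (2.50%) above.

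**Figure D5:**
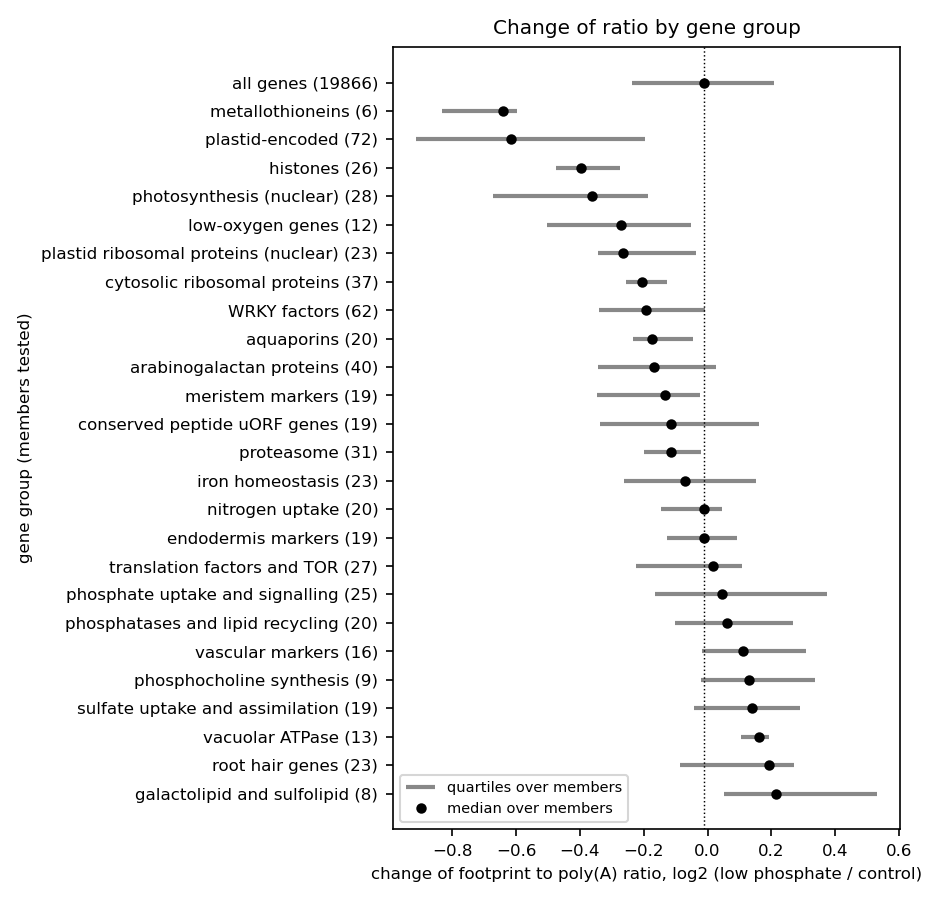
Median (point) and quartiles (bar) over members of the change of footprint to poly(A) ratio (horizontal axis, log2, without pairs) for each gene group, with the number of members tested in brackets (vertical axis). The dotted line is the median of all genes at -0.01; metallothioneins, plastid-encoded genes and histones lie lowest and the galactolipid and sulfolipid genes highest.

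Outside the lists, the nuclear genes of smallest p without pairs and no overlap between conditions were taken, 8 in each direction. The higher ones besides XPL1 were AT1G73460, RDR1, ABCC6, AT1G13970, EMB2730, SD2-5 and AT4G03410. RDR1, an RNA-dependent RNA polymerase, had log2 ratios of -0.49 and -0.59 in control and 0.31 and 0.15 in low phosphate (change 0.78 ± 0.21 without pairs). ABCC6, an ABC transporter, had 0.00 and 0.38 in control and 1.46 and 1.41 in low phosphate, and EMB2730, an organellar exoribonuclease, had -1.54 and -1.51 against -0.32 and -0.87. The lower ones besides MT1A, AT5G59690 and HTB11 were AT2G28230, AT2G05220, AT1G49900, AT4G00980 and AT1G05310, with changes from -0.81 to -1.81. With pairs, 5 further genes had an edgeR adjusted p between 0.05 and 0.1, and are named although the rule did not take all of them: AGP10, AT1G19960, TMT1, AT1G73460 and ATCG00180. AGP10, an arabinogalactan protein, had log2 ratios of 1.48 and 1.27 in control and 0.35 and 0.78 in low phosphate. TMT1, a sugar transporter of the vacuolar membrane, had a change of 0.75 ± 0.17 (edgeR adjusted p = 0.078).

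Among genes with a listed 5′ UTR of 50 nt or more, the median change was higher in classes of longer leaders. It was -0.05 for 3063 genes with 5′ UTRs of 1 to 49 nt and -0.07 for 4893 genes with 50 to 99 nt, it was -0.00 for 5497 genes with at least 100 but under 200 nt, and it was 0.04 for 2152 genes with at least 200 but under 300 nt and 0.07 for 1583 genes with 300 nt or more. Both low-phosphate ratios were above both control ratios in 15.6% of the genes with the shortest leaders and 25.4% of those with the longest, and below in 22.0% and 14.0%. The class of 50 to 99 nt, with the lowest median, had 14.1% above and 24.0% below. The 2580 genes with no 5′ UTR listed had a median of 0.06, with 21.1% above and 14.7% below, close to the class of longest leaders. For 5843 genes with an entry in the authors' uORF table the median was 0.02, against -0.02 for 13925 genes with none. By quartile of poly(A) level the medians were -0.05, -0.04, -0.00 and 0.02 from the lowest to the highest. These are descriptions across genes that share the same 8 libraries, and no test was made of them.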

How the data were processed

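Per the submitters' processing notes, CASAVA 1.8, TopHat 1.3.1, Bowtie2 2.2.9 and the TAIR10 build were used; the sources used here do not give the read counter or its strand setting. The authors deposited whole-number read counts per coding region, RPKM values per 5′ UTR exon and an integer score per uORF. The 8 columns of the count table were matched to 4 samples by name, 2 columns each. Counts were tested with edgeR 4.0.16 in R 4.3.3 (filterByExpr, TMM, glmQLFit and glmQLFTest, Benjamini-Hochberg over 19866 genes) as the interaction of assay and phosphate, without pairs and with a term per pair of same-numbered libraries. limma 3.58.1 and DESeq2 1.42.0 were alternatives. Ratios per pair are differences of log2 CPM with a prior count of 2. Leader ratios used log2(RPKM + 0.5) for leaders in 1 exon. Both fits were also run on simulated counts, and no result given here rests on that run.

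Deviations of same-numbered footprint and poly(A) libraries from their group means had a correlation of 0.39 for control and 0.56 for low phosphate over 16773 genes. The labels do not state the pairing, and 2 libraries per group give 1 such value per condition. The design text names 2 biological replicates; p-values measure only the spread between these libraries.

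Members and gene lists were chosen with earlier results of these data known. Genes to name were those called by either fit and the 8 nuclear genes each way of smallest p without pairs whose ratios did not overlap. Up to 3 per list of smallest p with pairs and a set of phosphate genes were added. Not all genes so taken are printed. Some others are said to be chosen after their values were seen or complete a list or count. Further genes, such as CCT2, TOR, S6K2 and HTA11, were named outside these rules. Of 397 list entries, 378 matched a RefSeq name of TAIR10.1 and 19, whose names differ there, were left out of the lists. Further families came from words in RefSeq names. Coding length classes were not used, and leader length classes, chosen after the files were seen, took their place. Printed errors are edgeR standard errors, which include the spread between libraries; the level of 3 counts covers counting error only.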

Additional observations from a re-analysis of the deposited data

How the results depend on the processing

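The calls depended on the pairing, and with pairs also on the tool and the low-count filter. Without pairs, 0 genes were called in either direction by edgeR under every normalization, filter and omitted library, with the replicate number as a block over all libraries, and by limma, limma voom and DESeq2. With the footprint and poly(A) pairs as a replicate block, edgeR called 3 genes higher and 5 lower, and without the block 0 and 0. In that paired fit, limma on log2 CPM and DESeq2 called 0 in each direction (1468 and 509 genes at an unadjusted p under 0.05). Omitting the low-count filter gave 23 higher and 31 lower, a mean of 50 counts per assay gave 1 and 2, total-count scaling gave 3 lower and nuclear genes only gave 2 lower. Leaving out 1 pair gave 3 to 186 genes higher and 4 to 258 lower. Both highest counts came without control pair 2, and omitting low-phosphate pair 2 gave 71 and 56. XPL1 and MT1A were called in 7 of the 9 paired alternatives of scaling, filter and tool. UGP3 and ATCG00140 lost the call with total-count scaling, limma on log2 CPM, limma voom and DESeq2, and UGP3 also with a mean of 50 counts per assay. Of the 8 genes, 5 stayed called with total-count scaling, 3 with a mean of 50 counts per assay and 6 with limma voom. The cause of these differences was not tested.

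Of the genes named, 10 changed sign in at least 1 fit that left out a library or pair; the ranges of the change over those fits follow. Without pairs it ran from -0.52 to 0.41 for AT1G73600, -0.51 to 0.21 for SQD2, -0.97 to 0.16 for MGDC, -1.72 to 0.47 for bZIP1, -0.69 to 0.18 for bZIP11, -0.79 to 0.069 for bZIP44, -0.16 to 0.13 for PHT1;1, -1.88 to 1.44 for SPX1, -0.051 to 0.70 for SAMDC and -0.24 to 0.054 for PS2. With pairs it ran from -0.57 to 0.18 for AT1G73600, -1.43 to 0.60 for MGDC, -0.054 to 0.048 for PHT1;1, -0.38 to 0.066 for SPX1 and -0.22 to 0.028 for PS2. Depth limits the genes with few control counts, such as RNS1, SPX3 and MGDC.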
